A study of Rattus norvegicus with 12 samples.

Results

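The blood vessel endothelium of the prepubertal rat mammary gland was followed through 10 genes chosen by name, namely Pecam1, Cdh5, Kdr, Flt1, Tek, Tie1, Vwf, Emcn, Eng and Esam. Of these, 7 had a row among the 16511 genes of the count table, and all 7 were among the 9382 genes that passed a filter on low counts. Kdr, Vwf and Eng were not analysed here. The glands came from offspring of rats fed either a high fat butter diet (HFB, 6 glands) or a control AIN diet (CTL, 6 glands) and were taken on postnatal day 21. Each gland was snap-frozen and came from a litter of its own, and the study's methods describe Sprague-Dawley females. The labels and design text name no microdissection, whereas the study describes sequencing of epithelium microdissected from glands of the butterfat diet with or without bisphenol A, a step meant to leave other cell types out. The sources also disagree on when the high fat butter exposure started and ended, and they settle neither point. The libraries did hold RNA of cells other than epithelium. In them 8 adipocyte genes summed to between 17254 and 42903 CPM (counts scaled to a common library size), and 7 mammary epithelial genes to between 117 and 669. The labels name no bisphenol A for either diet. The comparison asks whether the high fat butter diet altered gene expression in the gland of the offspring.

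Endothelial cells line every blood vessel and hold together through adhesion molecules at their borders, where VE-cadherin (Cdh5), PECAM-1 (Pecam1) and the adhesion molecule Esam are placed. Their growth and survival depend on receptor tyrosine kinases, the VEGF receptors Flt1 and Kdr and the angiopoietin receptor Tek with its relative Tie1. In the mammary gland a capillary bed surrounds the ducts and supplies the fat pad, and it expands with the epithelium at puberty and in pregnancy.

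Promoter windows were matched by symbol for 3 of the 7 genes, Flt1, Tie1 and Emcn, and all 3 are shown so that they can be read beside the expression values below. Pecam1, Cdh5, Tek and Esam were not matched. The windows run from 250 bases before to 50 bases after the gene start and are RefSeq sequences of the GRCr8 assembly. They lie at chr12:12333180-12333479 on the plus strand for Flt1, at chr5:137304932-137305231 on the minus strand for Tie1 and at chr2:228564289-228564588 on the plus strand for Emcn. Capitals mark the letters GGAAGT, the core bound by ETS family factors that act in endothelial cells, or the same letters on the opposite strand (ACTTCC).
Flt1: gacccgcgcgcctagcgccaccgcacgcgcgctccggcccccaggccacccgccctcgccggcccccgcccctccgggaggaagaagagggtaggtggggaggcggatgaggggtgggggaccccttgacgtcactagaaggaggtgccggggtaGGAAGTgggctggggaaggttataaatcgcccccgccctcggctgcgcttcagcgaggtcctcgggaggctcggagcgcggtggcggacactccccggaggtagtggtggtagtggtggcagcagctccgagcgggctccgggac
Tie1: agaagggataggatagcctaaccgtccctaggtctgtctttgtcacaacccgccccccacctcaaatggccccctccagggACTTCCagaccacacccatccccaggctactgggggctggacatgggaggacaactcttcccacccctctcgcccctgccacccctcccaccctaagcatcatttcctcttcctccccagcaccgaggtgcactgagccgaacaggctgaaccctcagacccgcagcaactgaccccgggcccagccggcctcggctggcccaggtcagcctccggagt
Emcn: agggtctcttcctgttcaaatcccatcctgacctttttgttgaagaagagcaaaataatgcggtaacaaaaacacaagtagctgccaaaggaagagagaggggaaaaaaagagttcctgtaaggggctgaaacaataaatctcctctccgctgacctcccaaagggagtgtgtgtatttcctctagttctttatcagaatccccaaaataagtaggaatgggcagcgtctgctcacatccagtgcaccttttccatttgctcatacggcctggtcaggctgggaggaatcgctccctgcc
The letters occurred once each in the windows of Flt1 and Tie1, starting 95 and 169 bases before the gene start, and not in that of Emcn. Of all 33469 promoter windows of this length, 22.6% held them on either strand. The letters TATAAA occurred in the Flt1 window and not in those of Tie1 and Emcn, and 14.2% of all windows held them. A match of this kind describes the window and was not tested as a binding site.

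Total counts lay between 2320267 and 2760871 in the HFB libraries and between 2403464 and 2944680 in the CTL libraries (two-sided exact permutation test, p = 0.561). Libraries are named by their diet and library number. At these depths 3 counts, taken as the detection limit, correspond to between 0.945 and 1.30 CPM, the counts of a gene scaled to a common library size with the TMM factors of edgeR. This limit covers counting error only. Each of the 7 genes reached it in all 12 libraries, and the lowest count was 3, for Flt1 in HFB 5.

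A pair of libraries, 1 of each diet, stood apart from the rest. HFB 6 and CTL 14 had the highest CPM of Pecam1, Tie1, Emcn and Esam, which is 4 of the 7 genes. Among all genes tested, 22.0% were highest in this same pair and 19.5% were lowest in it. In a different pair, HFB 5 and HFB 6, the CPM of Cdh5 and Flt1 was the lowest of the 12 libraries, which is 2 of the 7 genes and was the case for 11.3% of all genes tested. Tek followed neither pattern. These pairs were chosen after the values were seen, so the shares describe the libraries, and fold changes and correlations that rest on them are given with and without them.

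No endothelial gene passed the test for a difference between the diets, and the 95% confidence interval of each log2 fold change included 0. The quasi-likelihood test of edgeR gave an adjusted p of 0.999 for each of the 7 genes, with Benjamini-Hochberg adjustment over all 9382 genes tested. No gene of the whole table had an adjusted p under 0.05, a share of 0%. At an unadjusted p under 0.05 there were 219 genes in edgeR, 271 in DESeq2 and 613 in limma-voom, and none of the endothelial genes was among them. DESeq2 gave no p for Pecam1 and Esam, so it tested 5 of the 7 genes. The 219 genes comprised 122 that were higher in HFB (1.30% of those tested) and 97 that were lower (1.03%). The balance turned in limma-voom (269 higher and 344 lower), without HFB 5 (57 and 78), without HFB 6 (114 and 157), without HFB 5 and HFB 6 (109 and 205) and without these and CTL 14 (209 and 253). It was nearly even with upper-quartile scaling (105 and 107) and without HFB 3 (80 and 82). When 1 library was left out, the total of edgeR ranged from 135 without HFB 5 to 587 without CTL 14, of which 419 were higher and 168 lower. Values of the diets overlapped for every endothelial gene, and did not overlap for 10 genes of the table (0.107%). The log2 fold change of HFB against CTL was positive for 2 endothelial genes and negative for 5, with a median of -0.14 beside a median of 0.00018 over all genes tested. Without CTL 14 there were 4 positive and 3 negative values with a median of 0.096, and without HFB 6 all 7 were negative with a median of -0.57. The signs of Pecam1, Tek, Tie1, Emcn and Esam changed when some libraries were left out. As fold changes, the 95% confidence intervals ran from 0.672 to 1.25 for Tek, the narrowest, and from 0.446 to 2.62 for Pecam1, the widest. In bulk RNA of this kind, fewer endothelial cells and less RNA per cell cannot be told apart.

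**Figure D1:**
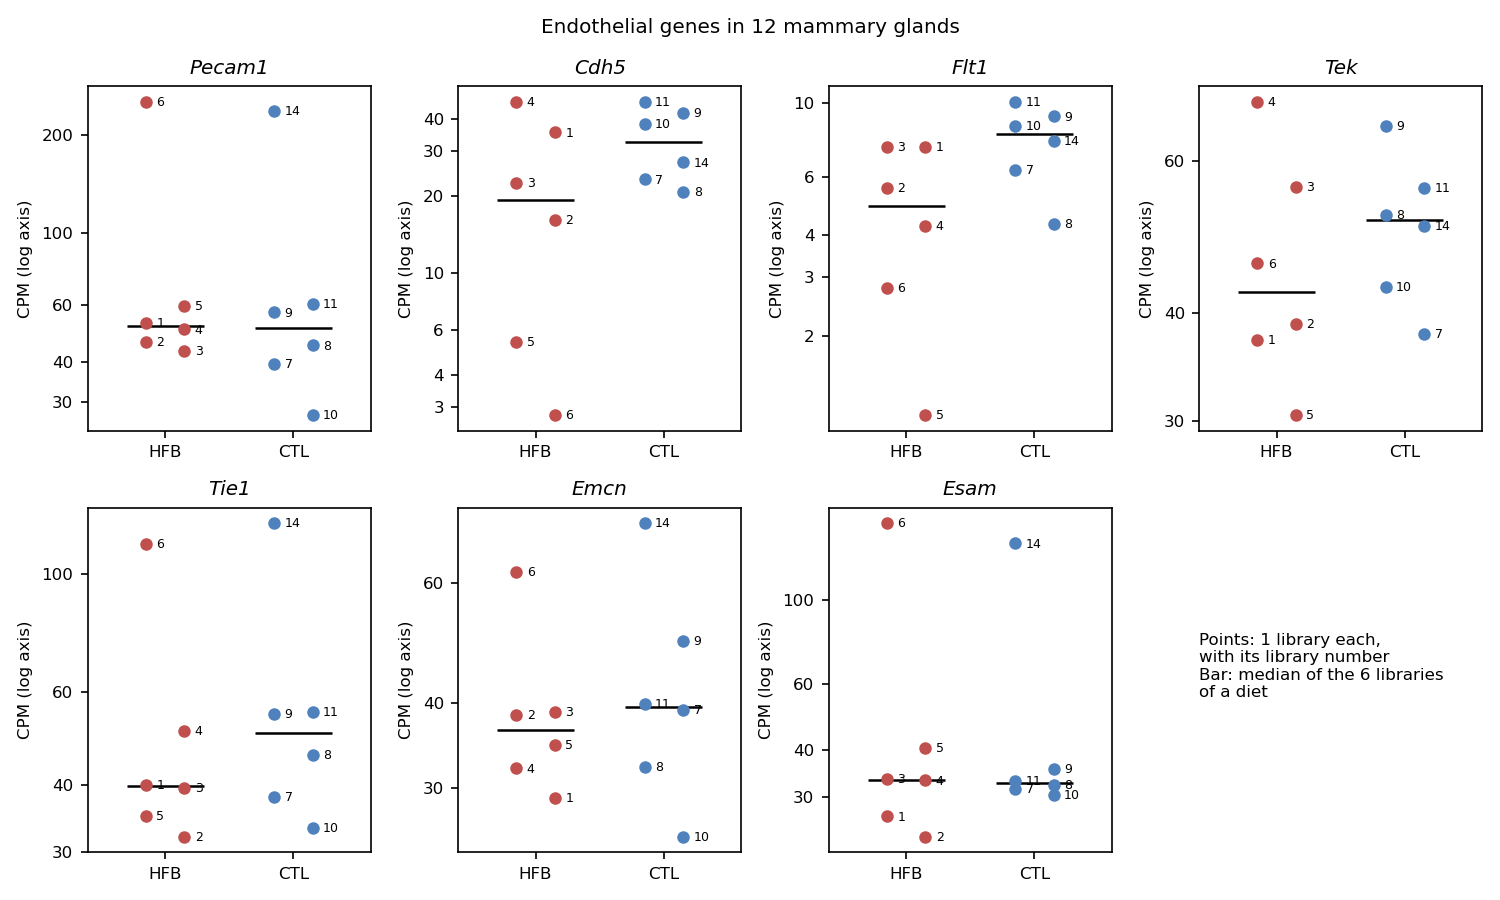
CPM of each of the 7 endothelial genes on a log axis, with 1 point for each of 6 HFB and 6 CTL libraries, its library number beside it, and a bar at the median of the diet. HFB 6 and CTL 14 lie above all other libraries for Pecam1, Tie1, Emcn and Esam, and HFB 5 and HFB 6 lie below them for Cdh5 and Flt1.

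Pecam1 (Entrez 29583) encodes an immunoglobulin family adhesion molecule of endothelial junctions that platelets and leukocytes also carry. Its CPM was between 43.1 and 254 in HFB, with a median of 51.5, and between 27.3 and 237 in CTL, with a median of 50.8. The highest value of each diet belonged to HFB 6 and CTL 14, the other 10 libraries lay between 27.3 and 60.4, and the ranges of the diets overlapped almost completely. The log2 fold change was 0.11 (SE 0.59, n = 6 per diet, 95% confidence interval -1.16 to 1.39). It was -0.63 without HFB 6, 0.91 without CTL 14 and 0.15 with both left out. The sign was also negative without CTL 7 (-0.023), CTL 8 (-0.0035) or CTL 10 (-0.053).

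Esam (Entrez 300519), an adhesion molecule of tight junctions that endothelium shares with platelets, repeated this arrangement. In HFB its CPM was between 23.5 and 160, with a median of 33.3, and in CTL it was between 30.3 and 142, with a median of 32.7. Outside HFB 6 and CTL 14 no library exceeded 40.5, and CTL 7 to CTL 11 differed little, from 30.3 to 35.5. Between the diets the log2 fold change was 0.06 (SE 0.55, 95% confidence interval -1.13 to 1.25) and -0.04 without both libraries. It was -0.70 without HFB 6 and 0.73 without CTL 14, and its sign turned negative in 6 of the 12 cases in which 1 library was left out.

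Cdh5 (Entrez 307618), the cadherin that links endothelial cells to each other and is regarded as specific to them, behaved differently. HFB libraries had between 2.78 and 46.7 CPM of it, with a median of 19.4, and CTL libraries between 20.9 and 47.0, with a median of 32.8. The lowest values were 7 reads in HFB 6 and 14 reads in HFB 5, against at least 38 reads in each of the other 10 libraries, while HFB 4 reached the level of CTL 11. CTL 14, which shared the high Pecam1 and Esam of HFB 6, had an intermediate Cdh5 of 27.1 CPM. Its log2 fold change was -0.62 (SE 0.52, 95% confidence interval -1.74 to 0.50). Without HFB 5 and HFB 6 it was -0.13 (SE 0.32).

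Flt1 (Entrez 54251) encodes a VEGF receptor that binds VEGF-A, VEGF-B and placental growth factor. Its CPM was between 1.16 and 7.38 in HFB, with a median of 4.91, and between 4.33 and 10.1 in CTL, with a median of 8.08. All 6 HFB libraries lay below the CTL median, yet 3 of them lay above CTL 8, the lowest CTL library, so the diets overlapped. The log2 fold change of -0.68 (SE 0.38, 95% confidence interval -1.50 to 0.13) was the most negative of the 7 genes and rested on 3 to 24 reads per library. Without HFB 5 and HFB 6, the libraries with the fewest Flt1 reads, it was -0.32 (SE 0.29).

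The ligands and co-receptors around these receptors had 15 of 16 listed genes in the table and 12 past the filter. None of the 12 had an unadjusted p under 0.05, 5 had a positive and 7 a negative log2 fold change, and their median was -0.13. Vegfa, the main ligand of Flt1 and Kdr, had 111 ± 32.7 CPM in HFB and 134 ± 20.8 in CTL (SD, n = 6), and like Flt1 it was lowest in HFB 5 (63.2) and HFB 6 (89.3). Vegfb, a ligand of Flt1, was lowest in HFB 6 (25.4) and CTL 14 (37.2) against 112 to 145 in the other 10 libraries. Acvrl1, an endothelial receptor for bone morphogenetic proteins, was instead highest in HFB 6 (219) and CTL 14 (157). Gdf2, which encodes a ligand of Acvrl1 and is named after its values were seen, had 0 counts in all 12 libraries.

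Tek (Entrez 89804), the receptor for the angiopoietins, varied least. The HFB libraries had from 30.5 to 70.2 CPM, with a median of 42.2, and the CTL libraries from 37.8 to 65.8, with a median of 51.2. HFB 4 was highest and HFB 5 lowest, so the HFB range enclosed the CTL range, and HFB 6 (45.6) and CTL 14 (50.5) were in the middle of it. For Tek the log2 fold change was -0.13 (SE 0.21, 95% confidence interval -0.57 to 0.32), and 0.0042 without HFB 5, HFB 6 and CTL 14.

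Tie1 (Entrez 89806), its relative with no firmly known ligand of its own, sided with Pecam1. Its CPM was between 32.0 and 114 in HFB, with a median of 39.9, and between 33.2 and 125 in CTL, with a median of 50.1. HFB 6 and CTL 14 were highest, the other 10 libraries lay between 32.0 and 54.9, and the diets overlapped. The log2 fold change was -0.17 (SE 0.38, 95% confidence interval -0.99 to 0.64). It was 0.22 without CTL 14, -0.57 without HFB 6 and -0.19 without both libraries.

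Emcn (Entrez 295490) encodes endomucin, a sialomucin on the surface of capillary and venous endothelium. Levels were between 29.0 and 62.3 CPM in HFB, with a median of 36.6, and between 25.5 and 73.4 in CTL, with a median of 39.5. CTL 14 and HFB 6 were again highest, but closer to the rest than for Pecam1 or Esam, since CTL 9 reached 49.4. HFB against CTL gave a log2 fold change of -0.14 (SE 0.26, 95% confidence interval -0.70 to 0.41). It was 0.096 without CTL 14 and -0.325 without HFB 6.

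**Figure D2:**
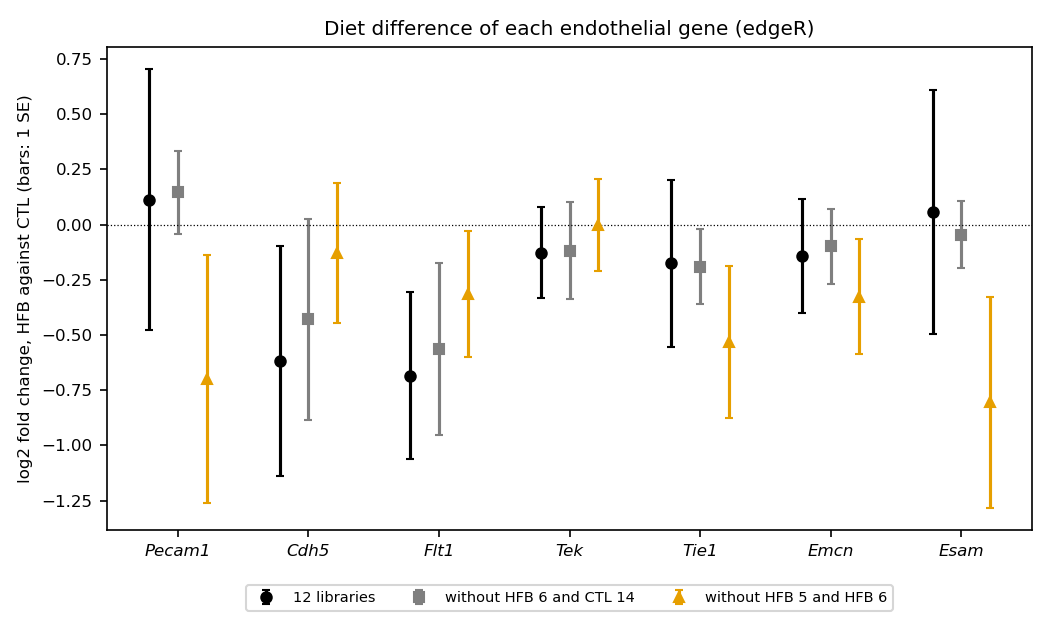
log2 fold change of HFB against CTL from edgeR for each of the 7 genes, with bars of 1 SE, in all 12 libraries (circles), without HFB 6 and CTL 14 (squares) and without HFB 5 and HFB 6 (triangles). Leaving out HFB 6 and CTL 14 narrowed the SE of Pecam1 from 0.59 to 0.19, and leaving out HFB 5 and HFB 6 moved Esam from 0.06 to -0.80.

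The genes differed in how much they varied among glands of the same diet. The biological coefficient of variation, which edgeR estimates within the diets, was 0.689 for Pecam1, 0.648 for Esam and 0.618 for Cdh5, against a median of 0.286 over all genes tested. Their percentiles among these genes were 94.6, 93.2 and 91.8. Tie1 had 0.458, Flt1 0.377 and Emcn 0.326, and Tek with 0.267 was the only one below the median. The highest library exceeded the lowest 16.9 times for Cdh5, 9.28 times for Pecam1 and 2.31 times for Tek.

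Within a library, ratios of reads do not depend on scaling and show the same divergence. The library had between 0.712 and 2.84 reads of Pecam1 for each read of Cdh5 in 9 of the 12 libraries. In CTL 14 the ratio was 8.74, in HFB 5 it was 11 (154 against 14 reads) and in HFB 6 it was 91.3 (639 against 7 reads). For the angiopoietin receptor family, reads of Tie1 per read of Tek were 2.50 in HFB 6 and 2.47 in CTL 14, and between 0.708 and 1.15 in the other 10 libraries. Transcript lengths were not used, so the 7 genes are not ranked by level.

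Across the 12 libraries the log2 CPM of Pecam1, Tie1, Emcn and Esam varied together. Pecam1 had a Pearson r of 0.948 with Esam (Spearman rho 0.671), 0.937 with Tie1 (rho 0.727) and 0.874 with Emcn (rho 0.615). Without HFB 6 and CTL 14, which are the libraries farthest from the median of Pecam1, these values of r were 0.309, 0.546 and 0.533, so the closest relation rested on those 2 libraries. Cdh5 and Flt1 had an r of 0.800 (rho 0.699), and 0.422 without HFB 5 and HFB 6, the libraries farthest from the median of Cdh5. Between the groups, Cdh5 and Esam had an r of -0.517 over 12 libraries (rho -0.203) and 0.0246 without HFB 5 and HFB 6. Tek and Tie1 had an r of 0.347 over 12 libraries (rho 0.524) and of 0.794 (rho 0.624) without HFB 6 and CTL 14, but of 0.320 (rho 0.442) without HFB 4 and HFB 5, the libraries farthest from the median of Tek. Over the 21 pairs of the 7 genes the median r was 0.210, and 15 pairs were positive. Without HFB 5, HFB 6 and CTL 14 the median r was 0.421 and 19 pairs were positive. Computed again among the alternatives below, this median was 0.411. These values describe 12 libraries that differ in depth and in the summed CPM of genes of other cell types, and no p was computed for them.

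**Figure D3:**
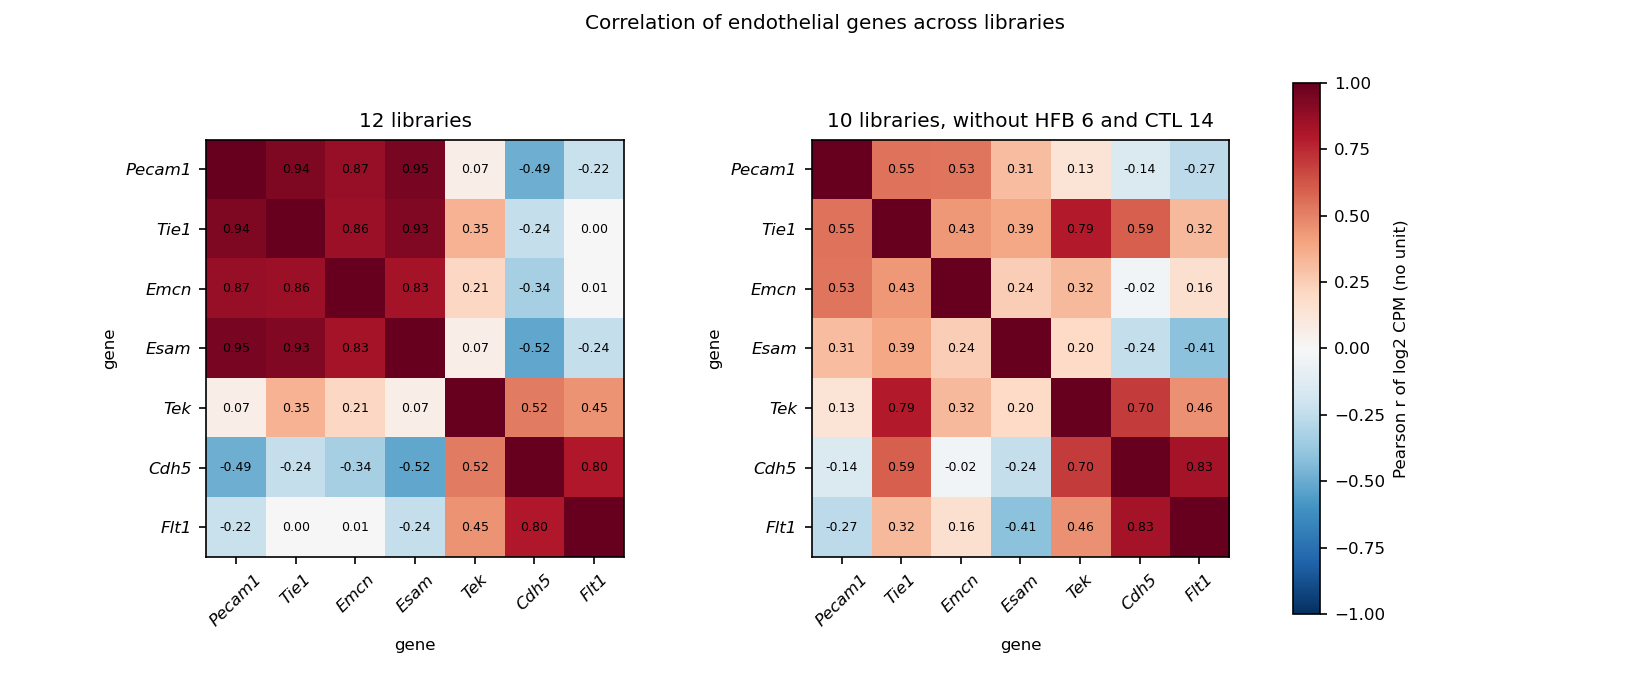
Pearson r of log2 CPM for each pair of the 7 genes, over 12 libraries on the left and over 10 libraries without HFB 6 and CTL 14 on the right. The block of Pecam1, Tie1, Emcn and Esam falls from between 0.830 and 0.948 on the left to between 0.244 and 0.546 on the right. Cdh5 and Flt1 have 0.800 on the left and 0.830 on the right, but 0.422 without HFB 5 and HFB 6, which is not drawn.

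The summed CPM of the 7 genes was 301 ± 170 in HFB and 322 ± 173 in CTL (SD, n = 6). The median was 235 in HFB, where sums ran from 201 to 641, and 267 in CTL, where they ran from 206 to 662. HFB 6 and CTL 14 gave the highest sums, and the other 10 libraries lay between 201 and 313.5. The difference of the means was -20.9 CPM, and its sign and size depended on single libraries and on scaling, with -48 in CPM by total counts, -89.5 without HFB 6, -0.83 without HFB 2 and 50.6 without CTL 14.

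Among 7778 other genes with a mean of at least 10 CPM, those whose log2 CPM most resembled the mean of the 7 genes over the 12 libraries were Jam2 (r 0.928, rho 0.895), Zc3h7a (r 0.922), Tspan13 (r 0.919), Mylip (r 0.917) and Il6st (r 0.916). They were followed by Dll4 (r 0.915), Ccnl1 (r 0.914), RT1-T24-1 (r 0.904), Adgrf5 (r 0.902) and Ctnnal1 (r 0.902). Jam2 encodes a junctional adhesion molecule of endothelium and Dll4 a Notch ligand of arterial and sprouting endothelial cells. Without HFB 6 and CTL 14 the r of these 10 genes lay between 0.752 (RT1-T24-1) and 0.944 (Adgrf5), with 0.872 for Jam2 and 0.791 for Dll4. For each gene alone, the gene with the highest r, named after its values were seen, was Il17ra for Pecam1 (0.980), Bcam for Esam (0.990), Cd93 for Cdh5 (0.960), Ranbp2 for Flt1 (0.950), Clec14a for Tek (0.851), Shank3 for Tie1 (0.970) and Ushbp1 for Emcn (0.932). Without HFB 6 and CTL 14 these values were 0.818 for Il17ra, 0.917 for Bcam, 0.867 for Shank3, 0.810 for Ushbp1, 0.922 for Cd93, 0.950 for Ranbp2 and 0.896 for Clec14a. Without HFB 5 and HFB 6 they were 0.732 for Cd93, 0.765 for Ranbp2 and 0.803 for Clec14a, and between 0.926 and 0.982 for the other 4. Of these genes, Cd93 and Clec14a are known as lectin-like surface proteins of endothelium.

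Other endothelial genes also fell into several arrangements. Of 22 further pan-endothelial genes 19 had a row and 18 passed the filter, of which 6 had a positive and 12 a negative log2 fold change with a median of -0.11, and none had an unadjusted p under 0.05. In 9 of the 18 the highest CPM fell in HFB 6 and CTL 14, as for Pecam1, beside 22.0% of all genes tested. In 3 of them, Calcrl, Thbd and Cd93, named after their values were seen, the lowest fell in HFB 5 and HFB 6, as for Cdh5, beside 11.3%. In 3 others, Cav1 and, named in the same way, Cd34 and Tspan7, the lowest fell in HFB 6 and CTL 14, beside 19.5%, which was the case for none of the 7 genes. Gpihbp1, which anchors lipoprotein lipase on capillaries, had 529 CPM in HFB 6 and 307 in CTL 14 against 69.1 to 188.5 in the others, and the water channel gene Aqp1 had 349 and 436 against 105 to 215. Cav1, which encodes the caveolar coat protein of endothelium and fat cells, was lowest in them, with 767 and 855 CPM against 1367 to 2489. The tight junction gene Cldn5, named after its values were seen, had 0 counts in all 12 libraries.

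**Figure D4:**
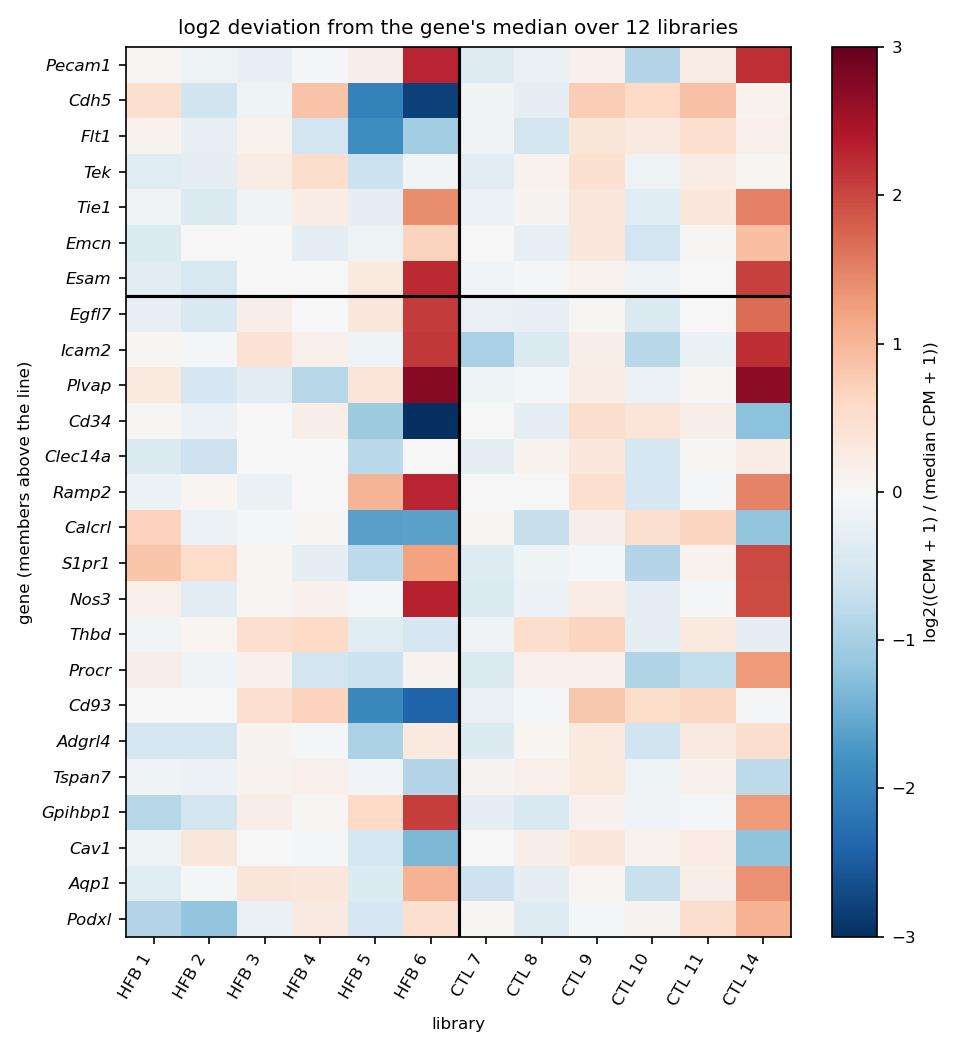
log2 deviation of (CPM + 1) from the median of each gene over 12 libraries, for the 7 genes above the horizontal line and the 18 further pan-endothelial genes past the filter below it, with HFB libraries left and CTL libraries right of the vertical line and colours stopping at 3 in either direction. Red columns at HFB 6 and CTL 14 hold Pecam1, Tie1, Emcn and Esam, and blue cells at HFB 5 and HFB 6 hold Cdh5 and Flt1.

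Of the endothelial transcription factors 12 of 14 passed the filter, 5 with a positive and 7 with a negative log2 fold change (median -0.07). Epas1, which encodes a hypoxia-inducible factor, had 6.55 CPM in HFB 5, 1.59 in HFB 6, 16.4 in CTL 14 and between 41.8 and 93.8 in the other 9 libraries. Ets1 had 131 ± 100 CPM in HFB and 112 ± 93.0 in CTL, and Klf2, a gene induced by blood flow, 30.1 ± 7.75 and 25.7 ± 10.1. Arterial genes had 7 of 10 past the filter with a median log2 fold change of -0.23, among them Cxcl12 with 242 ± 30.0 CPM in HFB and 288 ± 60.2 in CTL and Notch1 with 32.3 ± 9.51 and 37.7 ± 20.2. Jag1, a Notch ligand, had a log2 fold change of -0.073. Venous and capillary genes had 5 of 10 past the filter with a median of -0.16, among them the fatty acid transporter Cd36 with 969 ± 414 CPM and 1212 ± 348, Rgcc with 177 ± 46.7 and 147 ± 38.0, and the adhesion molecule Vcam1 with 34.4 ± 9.78 and 39.8 ± 7.39. Of the mural cell genes, listed for the pericytes and smooth muscle around vessels, 11 of 12 passed the filter with a median of -0.28. Notch3 was the only listed vascular gene with an unadjusted p under 0.05, with 11.6 ± 3.68 CPM in HFB and 23.6 ± 10.8 in CTL, a log2 fold change of -1.02 (SE 0.30) and an adjusted p of 0.999. It was 1 of 11 mural cell genes tested, and the other vascular lists had no such gene. They held 7 members, 12 ligands and co-receptors, 18 pan-endothelial genes, 12 transcription factors, 7 arterial, 5 venous and capillary and 4 lymphatic genes tested. Of all genes tested, 2.33% had an unadjusted p under 0.05, so Notch3 is not read as a result on mural cells. The highest value of Notch3 was that of CTL 14, with 43.1 CPM.

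Sums over genes of several other cell types were also high in HFB 6 and CTL 14, beside the high Pecam1, Tie1, Emcn and Esam, although not every gene of these lists was. The 11 leukocyte genes with a row, of 12 listed, summed to 2988 CPM in HFB 6 and 3152 in CTL 14 against 535 to 1552 in the other 10 libraries. Coro1a, which took the most reads of them in this pair, had 945 and 1065 CPM against 20.3 to 314, Lyz2, which took the most over all 12 libraries, had 827 and 898 against 174 to 637, and Laptm5 had 598 and 417 against 54.7 to 151. Of the 9 leukocyte genes tested 5 were highest in this pair, namely Ptprc, Cd68, Lyz2, Laptm5 and Coro1a. The myeloid genes were divided, since Cd68 and Lyz2 were highest in it, while Csf1r, Cd14, Adgre1 and Itgam were not. Ptprc, Cd68, Csf1r, Cd14, Adgre1 and Itgam are named after their values were seen. Adgre1 had 11.5 and 3.13 CPM against 9.41 to 29.8, and Itgam 1.19 and 5.92 against 5.78 to 15.5. The list for high endothelial venules, the vessels by which lymphocytes enter lymph nodes, is not specific to them, since Ccl19 and Cxcl13 are chemokine genes of lymphoid stroma and Glycam1 is also a mammary epithelial gene. Its genes summed to 1731 and 1465 CPM against 30.2 to 117. Glycam1 took the most reads of these 6 genes, with 1014 and 899.9 CPM against at most 36.0, Ccl19 had 595 and 395 against at most 27.8, and Cxcl13 had 78.2 and 141 against 25.1 to 71.5. The other 3 genes of the list are named after their values were seen. Madcam1 had 23.8 and 11.5 CPM against at most 2.70, Fut7 had 19.4 and 16.7 against at most 2.86, and Chst4 had 0 counts in 11 of the 12 libraries.

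Lymphatic endothelial genes summed to 2182 and 1979 CPM in HFB 6 and CTL 14 against 251 to 509, of which the chemokine gene Ccl21 gave 2006 and 1864. Lyve1 was lowest in the same pair, with 99.2 and 63.0 CPM against 113 to 180, Pdpn had 41.3 and 20.2 against 24.9 to 57.1, and Prox1, named after its values were seen, did not exceed 5 counts in any library. The mural cell genes summed to 1574 and 1633 CPM against 769 to 1076, and among them Tagln had 518 and 583 against 40.8 to 140. Mcam, which took the most reads of that list and is also an endothelial gene, was lowest in the pair, with 223 and 240 CPM against 338 to 553, and Cspg4 had 115.5 and 75.5 against 101 to 206. The 8 adipocyte genes summed to 22850 and 17254 CPM against 33327 to 42903. Of the 8, 6 were lowest in this pair, beside 19.5% of all genes tested. Fabp4, which took the most reads, had 14350 and 11260 CPM against 17850 to 25170, Adipoq had 1782 and 1546 against 5116 to 7161, and Lpl had 295 and 613 against 1347 to 6066. The part of these cell types in the high Pecam1, Tie1, Emcn and Esam was not tested.

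The remaining lists were summed in the same libraries. Platelet genes, relevant since platelets carry Pecam1 and Esam, had 2 of 8 past the filter and summed to 41.3 CPM in HFB 6 and 22.6 in CTL 14 against 26.2 to 91.8 in the others. Pf4 had 43.5 ± 20.7 CPM in HFB and 32.4 ± 14.1 in CTL, Gp1bb had a log2 fold change of 0.83, and Treml1 did not pass the filter. Red blood cell genes summed to between 9236 and 82404 CPM in HFB and between 7964 and 51272 in CTL, and all 6 that were tested had a positive log2 fold change (median 0.85) with no unadjusted p under 0.05, among them Hba-a1 with 1.01, Hba-a2 with 1.00 and Hbb with 0.78. Mammary epithelial genes, which check the labelled tissue, were present in all libraries and summed to between 117 and 669 CPM, with 669 in HFB 6, 648 in CTL 14 and 613 in HFB 5 as the highest sums. Their log2 fold changes were negative in all 7 genes tested, with a median of -0.21, and were -0.012 for Krt8, -0.18 for Krt18 and -0.21 for Krt19. Skeletal muscle genes summed to between 183 and 6330 CPM, the highest in HFB 6, and had a median log2 fold change of 0.40 over 8 genes, with 0.42 for Acta1, 0.91 for Ckm and 0.84 for Tnni2. Leukocyte, lymphatic, high endothelial venule and adipocyte genes had medians of 0.14, 0.024, -0.34 and -0.024 over the 9, 4, 1 and 8 genes tested.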

How the data were processed

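RNA of mammary glands was sequenced in 12 libraries, 6 per diet, grouped by their labels. The authors deposited raw counts of reads per gene, without normalization, by Entrez identifier. The submitters' processing notes name bcl2fastq, CASAVA 1.8, TopHat, DESeq and the rn4 build. The counting program and the use of strand are not given in the sources used here, so reads of overlapping genes could not be told apart. Symbols came from RefSeq (GRCr8) by identifier for 16351 of 16511 genes, and 5 of the 10 members had a promoter window under their symbol.

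Genes were tested in R 4.3.3 with edgeR 4.0.16 (quasi-likelihood F test, robust, TMM factors, filterByExpr by diet), with Benjamini-Hochberg adjustment over 9382 genes and a threshold of 0.05. CPM were scaled by TMM, and correlations used log2 CPM with a prior count of 2. Replicates of a diet differed by more than sampling noise (30 pairs, smallest chi-square divided by its degrees of freedom 7.1). Alternatives were DESeq2 1.42.0, other size factors, other filters, limma 3.58.1 (voom with quality weights), another prior count and leaving out libraries. Tests were checked on simulated data, in which a larger share of calls was false with DESeq2 than with edgeR or limma-voom. Figures were drawn with matplotlib.

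The members and lists were chosen with earlier results of these data known. Genes named are all members, the 3 with the highest mean CPM of each other list and any with an unadjusted p under 0.05, and the 10 genes most like the mean of the members with at least 10 CPM. Exceptions are marked.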

Additional observations from a re-analysis of the deposited data

Results flagged for a closer look

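The following values stood apart from the other 5 libraries of their diet, since the gap to the nearest of them took more than 0.625 of the whole range. This was the case in 24 of 46 groups of 6 libraries, where chance gives about 1 in 20, or 2.3, for normally distributed values. The measure was applied to total counts and CPM without a log, and its rate by chance on that scale was not computed. The groups are not independent, since they share libraries and some sums hold genes that are also examined singly. Of the 24, 11 concerned CTL 14 and 8 concerned HFB 6.

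Among the endothelial genes, Pecam1 stood apart with 253.6 CPM in HFB 6 and 237.3 in CTL 14, Tie1 with 113.9 and 124.6, Esam with 160.3 and 141.6, and Emcn with 62.3 in HFB 6. The next values of the same diet were 59.4 and 60.4 CPM for Pecam1 and 40.5 and 35.5 for Esam. The sum of the 7 genes stood apart with 641.3 CPM in HFB 6 and 662.2 in CTL 14. No value of Cdh5, Flt1 or Tek met this measure on the scale without a log.

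Sums over other lists that were high in CTL 14 were those of endothelial transcription factors (534.5 CPM), lymphatic endothelial genes (1978.7), mural cell genes (1632.8), leukocyte genes (3151.8) and high endothelial venule genes (1465.1). In HFB 6 the sums of lymphatic endothelial genes (2181.9), mural cell genes (1573.9) and high endothelial venule genes (1731.1) were high. Low sums in CTL 14 were those of venous and capillary genes (744.7 CPM) and adipocyte genes (17253.7). Platelet genes were high in CTL 9 (69.7 CPM), and red blood cell genes in HFB 2 (82404 CPM) and CTL 9 (51272 CPM). Total counts were low in HFB 1 (2320267) and high in CTL 7 (2944680). What sets these libraries apart was not tested.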

How the results depend on the processing

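No alternative gave a gene with an adjusted p under 0.05 or an endothelial gene with an unadjusted p under 0.05, over 21 alternatives, among which DESeq2 gave no p for Pecam1 and Esam. Leaving out HFB 6 and CTL 14, HFB 5 and HFB 6, or all 3 libraries was chosen after seeing the data. Of 145 log2 fold changes of the 7 genes under alternatives, 127 kept their sign, 18 changed it, and the smallest adjusted p was 0.684. Leaving out 1 library gave -0.63 to 0.91 for Pecam1 (4 of 12 changed sign), -0.70 to 0.73 for Esam (6 of 12), -0.57 to 0.22 for Tie1 and -0.32 to 0.096 for Emcn (1 of 12 each). Pecam1 was -0.70 without HFB 5 and HFB 6. Esam was -0.12 in limma-voom, -0.045 without HFB 6 and CTL 14, -0.80 without HFB 5 and HFB 6 and -0.15 without all 3, and Tek was 0.0042 without all 3. Cdh5 (-1.01 to -0.39) and Flt1 (-0.85 to -0.48) stayed negative without any 1 library. The 219 genes at an unadjusted p under 0.05 became 613 in limma-voom, 408 without HFB 6 and CTL 14 and 462 without all 3, and 135 to 587 when 1 library was left out (377 without HFB 1, 388 without HFB 4, 135 without HFB 5, 139 without CTL 7, 141 without CTL 10, 136 without CTL 11, 587 without CTL 14). The cause was not tested. When 1 library was left out, the difference in summed CPM lay between -89.5 (without HFB 6) and 50.6 (without CTL 14, where its sign turned), and the median r between 0.077 (without HFB 5) and 0.37 (without HFB 4). With CPM by total counts the difference was -48. Without all 3 libraries the median r was 0.411 here and 0.421 in the values given with the correlations. The first value set the filter and the TMM factors anew on the remaining libraries, and the second kept those of all 12. With at least 10 counts in every library, Cdh5 and Flt1 were not tested. Counts of 3 to 24 limit the precision of Flt1. No paired analysis was possible because each library number occurs in 1 diet.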
